A study of Mus musculus with 6 samples.

Results

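Genes that store and move zinc and copper were examined in whole mouse liver of wild-type and Pfn2-/- animals, which lack the actin-binding protein profilin 2. A fixed list of 36 genes was searched for array rows annotated with exactly 1 gene symbol, and 33 genes were found among the 22180 genes measured this way. They comprised 3 metallothioneins, the metal sensor gene Mtf1, 8 zinc efflux transporters (Slc30a), 14 zinc import transporters (Slc39a) and 7 copper handling genes. Slc30a1 and Slc30a10 lay only in rows that name several genes, and Commd1 was not in the annotation used here, so these 3 genes were not analysed here. Each found gene had a single such row.

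The series holds 6 Affymetrix arrays of total liver RNA from C57BL/6 mice, 3 wild type and 3 Pfn2-/-, each called an independent biological replica. Ages matched across genotypes, with 9 months for replicate 1, 8.5 for replicate 2 and 8 for replicate 3, and the labels give no treatment. The comparison asks what differs in liver transcripts when Pfn2 is lost. Values are RMA expression values on the log2 scale, where a step of 1 is a doubling, and precision is limited by the small number of arrays.

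Zinc and copper are needed by many enzymes but are toxic when free, so cells keep them bound or pump them between compartments. Metallothioneins are small cysteine-rich proteins that bind both metals, and the zinc finger protein MTF-1 switches their genes on when free zinc rises, through short metal response elements. Slc30a proteins carry zinc out of the cytosol and Slc39a proteins carry it in. Liver takes up copper through Slc31a1, passes it to chaperones and exports it to bile or onto ceruloplasmin through Atp7b.

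Mt1 and Mt2 varied most between animals of one genotype among the 33 genes, so the stretches before their starts are shown, from RefSeq for build GRCm38.p6. All 3 metallothionein genes lie on the plus strand of chromosome 8. Each run holds the 250 bases before the RefSeq start, and capitals mark the core of the metal response element, searched as TGCACNC or TGCGCNC on both strands, where overlapping matches would all count.
Mt1, chr8:94178839-94179088: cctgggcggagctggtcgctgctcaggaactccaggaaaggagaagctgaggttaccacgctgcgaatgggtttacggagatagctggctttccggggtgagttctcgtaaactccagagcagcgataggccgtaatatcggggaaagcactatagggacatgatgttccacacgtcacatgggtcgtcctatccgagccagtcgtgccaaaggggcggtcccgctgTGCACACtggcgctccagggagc
Mt2, chr8:94172368-94172617: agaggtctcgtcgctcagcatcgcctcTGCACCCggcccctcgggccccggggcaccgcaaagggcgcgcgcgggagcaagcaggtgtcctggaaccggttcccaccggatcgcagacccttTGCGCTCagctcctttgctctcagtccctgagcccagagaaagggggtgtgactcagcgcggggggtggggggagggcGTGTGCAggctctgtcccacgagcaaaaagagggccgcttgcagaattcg

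A further 4 matches lay in the first 50 bases after the RefSeq starts, and these are shown as 23-base sites with the core in capitals.
Mt1, chr8:94179083-94179105: gggagctcTGCACTCcgcccgaa
Mt1, chr8:94179101-94179123: ccgaaaagTGCGCTCggctctgc
Mt2, chr8:94172614-94172636: ttcgggtcGTGCGCAggcccagg
Mt3, chr8:94152626-94152648: gacagcagTGCACACacacggag
Over windows of 300 bases (250 before to 50 after the start), Mt1 had 3 matches, Mt2 had 4 and Mt3 had 1. At least 1 match occurred in 25.7% of all 32851 such windows in the table, at least 3 in 1.97% and at least 4 in 0.517%. Windows were in the table for 28 of the 33 genes, and 16 of their 34 windows held a match. The lysosomal and vesicular zinc transporter gene Slc30a4 had 3 matches, and Slc30a2 and the copper pump gene Atp7a had 2 each. A match describes the letters of the window and not binding of MTF-1. The RefSeq starts of Mt1 and Mt2 may lie upstream of the main transcription start, so "before" and "after" refer to the RefSeq start alone, and a window placed elsewhere could hold another number of matches.

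Liver arrays showed most zinc and copper genes above the level of silent rows. As that reference, the 95th percentile of the means of 1105 olfactory receptor genes was taken, at 4.26. These genes were taken as silent in liver, which was not tested. Of the 33 genes 30 had a mean over the 6 arrays above it, against 13687 of all 22180 genes (61.7%). With the 99th percentile, at 5.08, which was chosen after the values were seen, 24 were above. Brightness depends on each row's probes, so rows above the reference are not ranked against each other as amounts of mRNA.

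The 3 genes below the reference are best known from other organs. Slc30a8, the zinc transporter of insulin granules, lay at 3.31 to 3.71 over the 6 arrays. Slc39a12, a zinc importer known from brain, lay at 3.61 to 4.20. Slc30a2, which loads zinc into vesicles of secretory glands, lay at 4.10 to 4.29, close to the reference. Mt3, the metallothionein of brain, was just above it at 4.41 to 4.87, and so was Slc30a3, which fills synaptic vesicles with zinc, at 4.43 to 4.91. Slc39a2, an importer at the cell surface, reached 4.28 to 4.61. All 4 measured pancreatic islet markers were below the reference (array means of 3.76 to 4.04), as were 5 of 6 neutrophil markers, while 8 of 8 hepatocyte markers were above it (array means of 10.88 to 11.06). Markers of other cells that whole liver should hold little of were also above it in part. For neurons and glia these were 3 of 5, namely Syt1, Rbfox3 and the glial gene Gfap. For pancreatic acinar cells they were 3 of 5, for adipocytes 3 of 5 and for enterocytes 2 of 5. The neuronal gene Syt1 lay at 5.98 to 6.64. A row above the reference is therefore not by itself a sign of expression in liver cells, which bears on Mt3 and Slc30a3.

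Among the rows clearly above the reference were those of ceruloplasmin (Cp), the copper-carrying ferroxidase of plasma, at 9.70 to 9.90, and of the copper importer Slc31a1, at 8.75 to 8.99. Slc39a14, which hepatocytes use to take up zinc, manganese and iron, lay at 8.18 to 8.83. Slc30a9, reported in mitochondria, lay at 8.15 to 8.34, and Ccs, which hands copper to the dismutase SOD1, at 7.77 to 8.29. Slc30a5, Slc30a6 and Slc30a7, which supply zinc to enzymes of the secretory pathway, lay at 7.49 to 7.96, 7.45 to 7.62 and 6.96 to 7.23. These ranges were narrow compared with those of Mt1 and Mt2.

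**Figure D1:**
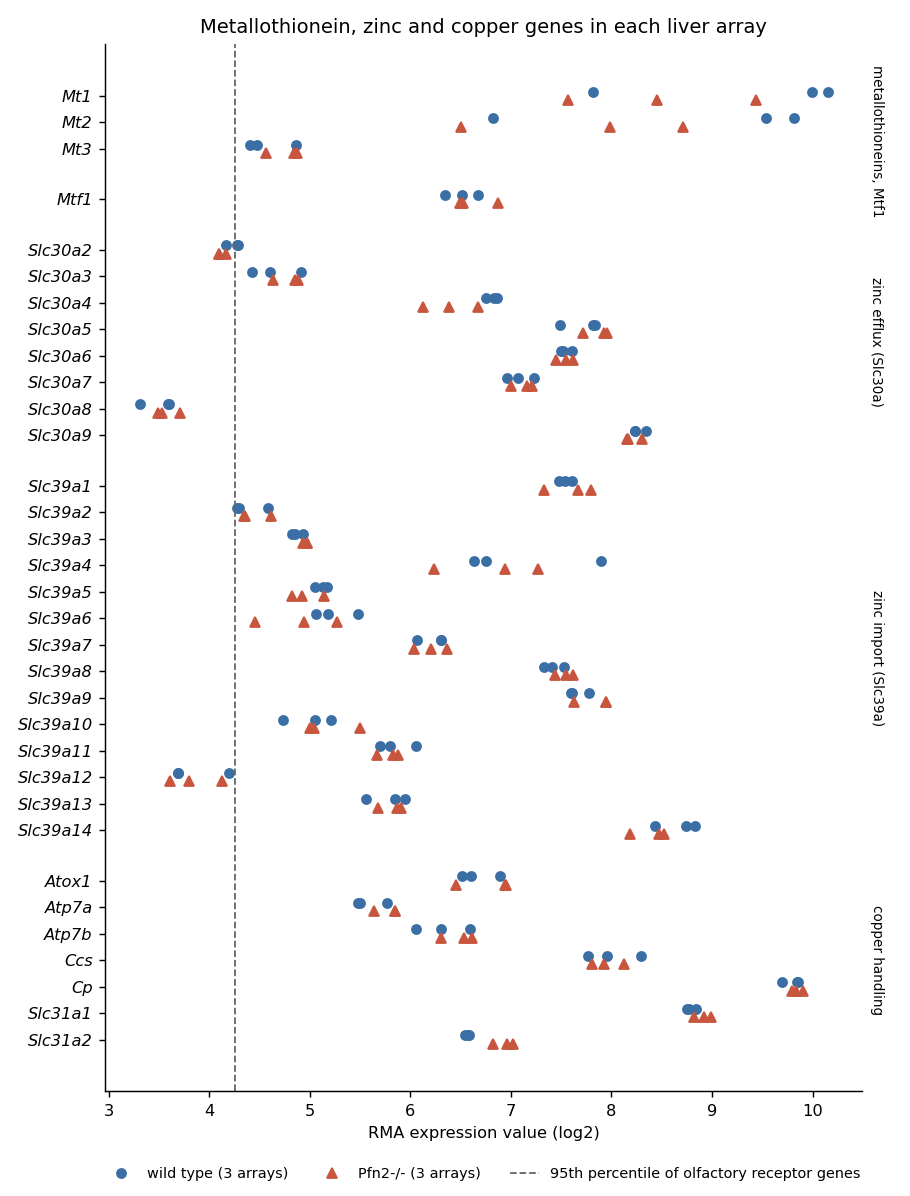
RMA expression values (log2, horizontal axis) of the 33 genes in every array, with circles for the 3 wild-type and triangles for the 3 Pfn2-/- arrays, grouped by role. The dashed line is the 95th percentile of olfactory receptor genes at 4.26, and Mt1 and Mt2 spread over 7.57 to 10.15 and 6.50 to 9.82 while Slc30a8 and Slc39a12 stay to the left of the line.

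Between the genotypes, none of the 33 genes passed the test, and differences above and below 0 were both common among them. Differences are given as Pfn2-/- minus wild type on the log2 scale, with their standard error (SE) from limma and n = 3 arrays per group. By limma with Benjamini-Hochberg adjustment over all genes, 0 of 33 had an adjusted p under 0.05, where the share of all genes called was 0%. At an unadjusted p under 0.05 there were 2 of 33, 1 higher and 1 lower, against 5.29% of all genes (2.67% higher and 2.62% lower). The groups did not overlap for the same 2 genes, against 9.85% of all genes (5.09% higher and 4.76% lower). The median difference was 0.04 over the 33 genes and 0.00 over all genes. For 18 of the 33 the difference was smaller than its own SE.

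The low-affinity copper transporter gene Slc31a2, which acts in endosomes, was the higher one of the 2. It read 6.58, 6.54 and 6.57 in wild-type replicates 1, 2 and 3, against 6.82, 6.96 and 7.02 in the Pfn2-/- replicates. Every Pfn2-/- array was above every wild-type array. The difference was 0.37 (SE 0.12, 95% confidence interval 0.11 to 0.63, limma unadjusted p = 0.0105, adjusted p = 0.837), and it ranged from 0.33 to 0.43 when single arrays were left out.

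Slc30a4, which moves zinc into vesicles and is needed for zinc in milk, was the lower one. It read 6.83, 6.86 and 6.75 (wild type) against 6.13, 6.38 and 6.67 (Pfn2-/- replicates 1, 2 and 3). All Pfn2-/- arrays were below all wild-type arrays, with Pfn2-/- replicate 3 close to them. The difference was -0.42 (SE 0.15, 95% confidence interval -0.76 to -0.08, limma unadjusted p = 0.0196, adjusted p = 0.915). It was -0.29 without Pfn2-/- replicate 1, where the unadjusted limma p came to 0.0857. Without wild-type replicate 1 or 2 the p also passed 0.05, to 0.0502 or 0.0534 by limma.

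Mt1 and Mt2, the metallothioneins of liver, had lower means in Pfn2-/- liver, but their values within each genotype spread more widely than the means differed. Mt1 read 10.15, 9.99 and 7.82 in wild-type replicates 1, 2 and 3, against 7.57, 8.45 and 9.44 in the Pfn2-/- replicates. Wild-type replicate 3 lay with the low Pfn2-/- arrays, and the groups overlapped. Mt2 read 9.54, 9.82 and 6.82 (wild type) against 6.50, 7.99 and 8.71 (Pfn2-/-), low in the same arrays. The difference was -0.83 for Mt1 (SE 0.60, 95% confidence interval -2.18 to 0.52, limma adjusted p = 0.956). For Mt2 it was -0.99 (SE 0.75, 95% confidence interval -2.67 to 0.69, limma adjusted p = 0.956).

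From the lowest to the highest array Mt1 spanned 2.58 log2 units (5.98-fold) and Mt2 spanned 3.32 (9.99-fold). The standard deviation within genotypes was 1.13 for Mt1 and 1.42 for Mt2, at percentiles 99.9 and 99.97 of all 22180 genes. It was at percentiles 99.9 and 99.9 of the genes above the olfactory receptor reference. Without wild-type replicate 3 the differences were -1.58 and -1.95, with limma unadjusted p = 0.00452 and 0.00376 and adjusted p = 0.421 and 0.412. Without Pfn2-/- replicate 1 they were -0.38 and -0.38. Mt1 and Mt2 are close paralogs, and whether transcripts of one also bind probes of the other was not tested.

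Mt3, by contrast, was high where they were low. It read 4.41, 4.48 and 4.86 (wild type) against 4.87, 4.84 and 4.56 (Pfn2-/-), close to the level of silent rows, with a difference of 0.17 (SE 0.16). Mtf1, the gene of the metal sensor, read 6.67, 6.51 and 6.34 (wild type) against 6.49, 6.52 and 6.87 (Pfn2-/-), a difference of 0.12 (SE 0.15). In wild-type replicate 3 and Pfn2-/- replicate 1, where Mt1 and Mt2 were lowest, Mt3 had its highest values and Mtf1 its lowest, by small margins.

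**Figure D2:**
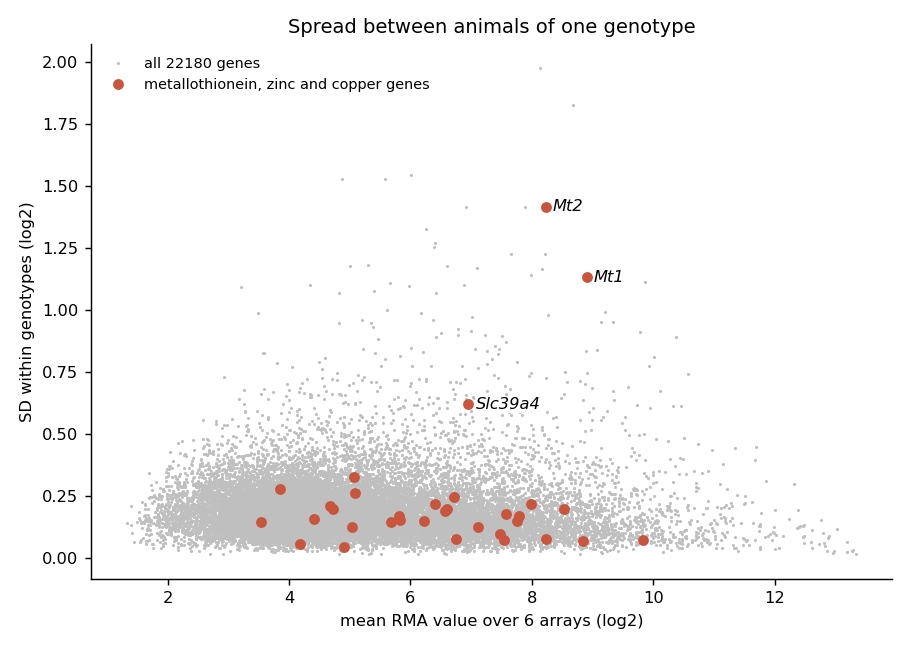
Standard deviation within genotypes (log2, vertical axis) against the mean RMA value over 6 arrays (log2, horizontal axis), with all 22180 genes as small dots and the 33 metal genes as large ones. Mt2 at 1.42, Mt1 at 1.13 and Slc39a4 at 0.62 stand above the other metal genes.

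Among the zinc efflux genes apart from Slc30a4, differences lay between -0.12 (Slc30a2, SE 0.11) and 0.15 (Slc30a5, SE 0.14). Slc30a9 and Slc30a6 differed by -0.06 (SE 0.12) and 0.00 (SE 0.12), Slc30a7 by 0.04 (SE 0.13), Slc30a8 by 0.08 (SE 0.13) and Slc30a3 by 0.14 (SE 0.15). The median over the 8 measured efflux genes was 0.02, with 4 above and 4 below 0.

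Among the 14 zinc importers 7 differences were above and 7 below 0, with a median of 0.01 and 0 at an unadjusted p under 0.05. Slc39a6 had the largest, and Slc39a14 and Slc39a4 followed. Slc39a6, which pairs with Slc39a10 at the cell surface, read 5.06, 5.48 and 5.18 (wild type) against 4.46, 4.94 and 5.27 (Pfn2-/-), with a difference of -0.35 (SE 0.20). The difference was -0.54 without Pfn2-/- replicate 3, with an unadjusted limma p of 0.0198, and -0.14 without Pfn2-/- replicate 1. Its partner Slc39a10 differed by 0.18 (SE 0.18), in the other direction. Slc39a14 read 8.74, 8.83 and 8.43 (wild type) against 8.47, 8.18 and 8.52 (Pfn2-/-), a difference of -0.28 (SE 0.15, 95% confidence interval -0.61 to 0.06). It was -0.40 without wild-type replicate 3, with an unadjusted limma p of 0.0295, and -0.17 without Pfn2-/- replicate 2. Both overlapped between the genotypes. Slc39a8, its closest relative, differed by 0.11 (SE 0.12).

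Slc39a4, the zinc importer that fails in acrodermatitis enteropathica, varied more between animals than the other transporters. It read 6.63, 6.75 and 7.90 in wild-type replicates 1, 2 and 3, against 7.27, 6.24 and 6.94 in the Pfn2-/- replicates. Its highest values were in wild-type replicate 3 and Pfn2-/- replicate 1, the arrays with the lowest Mt1 and Mt2. The standard deviation within genotypes was 0.62, at percentile 99.2 of all genes, and the difference was -0.28 (SE 0.34, 95% confidence interval -1.04 to 0.49). Its sign turned without wild-type replicate 3, to 0.13, and without Pfn2-/- replicate 2, to 0.01.

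The other importers differed by less. Slc39a9, of the Golgi, differed by 0.18 (SE 0.14) and Slc39a5, of the basolateral membrane, by -0.16 (SE 0.13). Slc39a3 differed by 0.09 (SE 0.11), Slc39a1 by 0.06 (SE 0.14), Slc39a2 by 0.05 (SE 0.14) and Slc39a13 by 0.03 (SE 0.14). Slc39a11 differed by -0.06 (SE 0.14), the endoplasmic reticulum transporter Slc39a7 by -0.03 (SE 0.14) and Slc39a12 by -0.01 (SE 0.18).

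Of the 7 copper genes 6 differences were above 0, against 10924 of all 22180 genes, with a median of 0.12. For 3 of the 7 the difference was smaller than its own SE, and Slc31a2 alone had an unadjusted p under 0.05. The copper pump gene Atp7a, which acts mainly outside liver, read 5.48, 5.77 and 5.50 (wild type) against 5.64, 5.85 and 5.85 (Pfn2-/-), with a difference of 0.20 (SE 0.13). Atp7b, the pump that is defective in Wilson disease, read 6.31, 6.06 and 6.59 (wild type) against 6.61, 6.53 and 6.31 (Pfn2-/-), with a difference of 0.16 (SE 0.16). The groups overlapped for both. The importer gene Slc31a1 differed by 0.12 (SE 0.12, 95% confidence interval -0.14 to 0.38), and the chaperone gene Atox1, which loads Atp7a and Atp7b, by 0.11 (SE 0.17). Cp differed by 0.04 (SE 0.12, 95% confidence interval -0.22 to 0.30) and Ccs by -0.05 (SE 0.16).

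**Figure D3:**
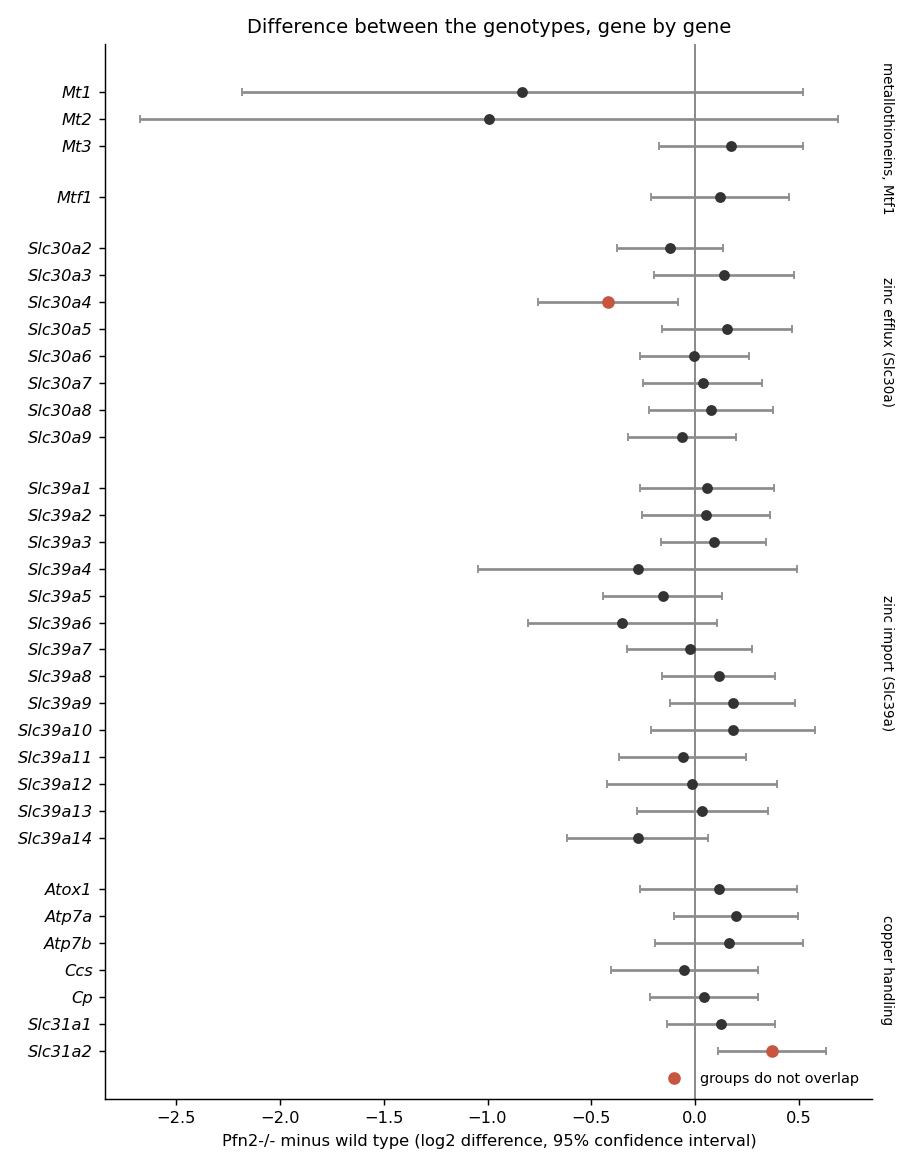
Log2 difference of Pfn2-/- minus wild type for each of the 33 genes (points), with its 95% confidence interval from the limma fit (bars) and groups of 3 arrays each. The red points are Slc31a2 at 0.37 and Slc30a4 at -0.42, whose groups did not overlap, and the intervals of the other 31 genes include 0.

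Other genes of copper and zinc handling likewise had no member past the adjusted threshold. Of 11 measured genes of copper reduction and mitochondrial copper delivery, 1 was higher and 1 lower at an unadjusted p under 0.05 (median -0.02). They were the metalloreductase gene Steap3 at 0.31 (SE 0.12) and the cytochrome oxidase assembly gene Coa6 at -0.32 (SE 0.13), and next came Slc25a3, the mitochondrial copper and phosphate carrier, at -0.20 (SE 0.11) and Cox17 at 0.24 (SE 0.14). Of 14 subunits of the Commander complex, which recycles copper pumps with Commd1, 0 had such a p (median -0.03), with Commd7 at 0.27 (SE 0.14), Commd2 at -0.22 (SE 0.13), Commd9 at -0.19 (SE 0.11) and Vps35l at -0.18 (SE 0.12). Of 16 copper-dependent enzymes and plasma factors 1 was lower, the ferroxidase gene Heph at -0.30 (SE 0.13), and the median was 0.00. Loxl1, Aoc2 and Pam differed by -0.23 (SE 0.11), -0.30 (SE 0.17) and -0.20 (SE 0.13). The dismutase gene Sod1, to which Ccs delivers copper, differed by -0.10 (SE 0.12). Of 11 other zinc carriers, channels and sensors 0 had such a p (median 0.08), with Slc11a1 at -0.28 (SE 0.15), S100a8 at 0.31 (SE 0.20), Mcoln1 at -0.11 (SE 0.12) and Hrg at 0.12 (SE 0.14).

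Of 8 further genes described as responsive to MTF-1 or metals, 1 was higher at an unadjusted p under 0.05 (median 0.02). This was Gclc, which makes the first step of glutathione synthesis. It read 9.04, 9.10 and 9.23 (wild type) against 9.71, 9.63 and 9.54 (Pfn2-/-), with a difference of 0.50 (SE 0.12, limma adjusted p = 0.714). Its groups did not overlap, and its values were close within each genotype, unlike those of Mt1 and Mt2. Hspa1b differed by 0.61 (SE 0.67), Hmox1 by -0.14 (SE 0.16) and Selenoh by 0.09 (SE 0.17). Gclc also stands among 8 measured NRF2 targets and antioxidant genes (median -0.06), where Osgin1 differed by 0.78 (SE 0.13), Gclm by 0.27 (SE 0.12) and Nqo1 by -0.48 (SE 0.18). In that list 2 were higher and 1 lower at an unadjusted p under 0.05.

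Metallothionein genes are known to respond to glucocorticoids, fasting, inflammation and heat stress, so genes of these responses were read in the same arrays. The mean of 11 glucocorticoid-responsive genes read 7.99, 8.00 and 7.58 in wild-type replicates 1, 2 and 3, against 7.21, 7.27 and 7.89 in the Pfn2-/- replicates. It was high where Mt1 was high, in wild-type replicates 1 and 2 and Pfn2-/- replicate 3, and lowest in Pfn2-/- replicate 1. The order differed for the remaining arrays. Wild-type replicate 3 had a higher mean than Pfn2-/- replicate 2 (7.58 against 7.27) but a lower Mt1 (7.82 against 8.45). In this list 10 of 11 differences were below 0 (median -0.27), and 3 genes were lower at an unadjusted p under 0.05. They were Fkbp5 (-1.20, SE 0.36), Gadd45b (-0.38, SE 0.13) and Zbtb16 (-0.98, SE 0.43), and Per1 followed with -0.43 (SE 0.21). That count was 9 without Pfn2-/- replicate 3 and 1 without wild-type replicate 1 or Pfn2-/- replicate 1, and the median ranged from -0.47 to -0.20 when single arrays were left out. Over all 22180 genes, 892 to 1560 had an unadjusted p under 0.05 without single arrays, and 1174 with all 6. The mean of 9 fasting-responsive genes read 8.68, 8.65 and 8.42 (wild type) against 7.49, 7.74 and 8.24 (Pfn2-/-). All 9 differences were below 0 (median -0.32), with Igfbp1 at -2.11 (SE 0.47), Lpin1 at -2.00 (SE 0.34), Ppargc1a at -0.66 (SE 0.25) and Cyp4a14 at -0.97 (SE 0.45). The first 3 of these had an unadjusted p under 0.05. There were 6 such genes without wild-type replicate 3 and 2 without wild-type replicate 1 or 2 or Pfn2-/- replicate 1, with medians from -0.58 to -0.21 over the single arrays left out. Their part in the metallothionein values was not tested.

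The acute-phase genes had another order of arrays. Their mean over 22 genes read 9.12, 9.12 and 9.01 (wild type) against 9.69, 9.00 and 9.95 (Pfn2-/- replicates 1, 2 and 3). It was high both in the Pfn2-/- array with the lowest Mt1 and in the one with the highest. Of these genes 3 were higher and 1 lower at an unadjusted p under 0.05 (median 0.17), with Saa2 at 2.90 (SE 0.96), Saa3 at 1.16 (SE 0.32), Lcn2 at 1.11 (SE 0.46) and the interleukin 6 receptor gene Il6ra at -0.60 (SE 0.23). There were 10 such genes without Pfn2-/- replicate 2, 2 without wild-type replicate 1 or 2 and 1 without Pfn2-/- replicate 1. The count over all 22180 genes moved as well, from 892 to 1560 without single arrays. Without Pfn2-/- replicate 2 the difference of Saa2 was 4.30 and passed the adjusted threshold (limma adjusted p = 0.0169), and without Pfn2-/- replicate 3 it was 1.85. Lcn2 ranged from 0.54 without Pfn2-/- replicate 3 to 1.71 without Pfn2-/- replicate 2. Inflammation is known to induce Cp and Slc39a14 in liver. Cp read 9.84 and 9.90 in Pfn2-/- replicates 1 and 3, against 9.70 to 9.86 in wild type. Slc39a14 read 8.47 and 8.52 in these arrays, against 8.43 to 8.83 in wild type. The mean of 8 heat shock genes was 7.40 in Pfn2-/- replicate 3 and 6.44 to 6.70 in the other arrays. The median difference was 0.22, and -0.06 without Pfn2-/- replicate 3. One of the 8, Hsp90aa1, was higher at an unadjusted p under 0.05 (0.40, SE 0.12), and Hsph1 and Hspa1a differed by 0.30 (SE 0.29) and 0.43 (SE 0.43). The part of inflammation and heat stress in the metallothionein values was not tested.

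Some markers of other cell types were lowest in the arrays where Mt1 and Mt2 were lowest. Lyve1, a hyaluronan receptor of sinusoidal endothelium, read 9.07, 9.23 and 6.78 (wild type) against 6.72, 8.41 and 7.74 (Pfn2-/-). It was lowest in wild-type replicate 3 and Pfn2-/- replicate 1, as Mt1 and Mt2 were. The other 5 markers of the list ranged less over the 6 arrays, from 8.72 to 9.06 for Clec4g, 7.53 to 7.77 for Stab2, 8.58 to 8.79 for Fcgr2b, 8.03 to 8.52 for Kdr and 6.62 to 7.38 for Pecam1. They did not follow Lyve1. Clec4g was highest in wild-type replicate 3 and Pfn2-/- replicate 1, at 9.06 and 8.94. Stab2, Fcgr2b, Kdr and Pecam1 had their lowest values in other arrays. Array means of all 6 were 7.90 to 8.36 in wild type and 7.89 to 8.13 in Pfn2-/- liver, and all 6 lay above the olfactory receptor reference. Fabp4, a fatty acid binding protein from the adipocyte list that endothelial cells also express, read 7.01, 7.05 and 5.79 (wild type) against 5.81, 6.89 and 6.04 (Pfn2-/-), lowest in the same pair of arrays. So, over smaller ranges, were the T cell gene Cd3e (4.63 to 5.38), the stellate cell gene Dcn (10.09 to 10.48) and the enterocyte gene Lct (4.13 to 4.43). The mean of Lct, 4.24, was below the olfactory receptor reference. These genes are named for this order of arrays, and other genes of their lists did not all share it. Cd3d, the stellate cell gene Lrat and the enterocyte gene Alpi, for example, were not lowest in both arrays. List means, which include the named genes, were lowest in this pair for sinusoidal endothelium, stellate cells and adipocytes. In wild-type replicate 3 and Pfn2-/- replicate 1 they were 7.90 and 7.89, 7.17 and 7.15, and 4.47 and 4.53. The next lowest arrays had 7.91, 7.20 and 4.64. The lymphocyte and enterocyte means had another order. In whole liver, fewer cells of a type and less RNA per cell cannot be told apart, and the part of these cell types in the metallothionein values was not tested.

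**Figure D4:**
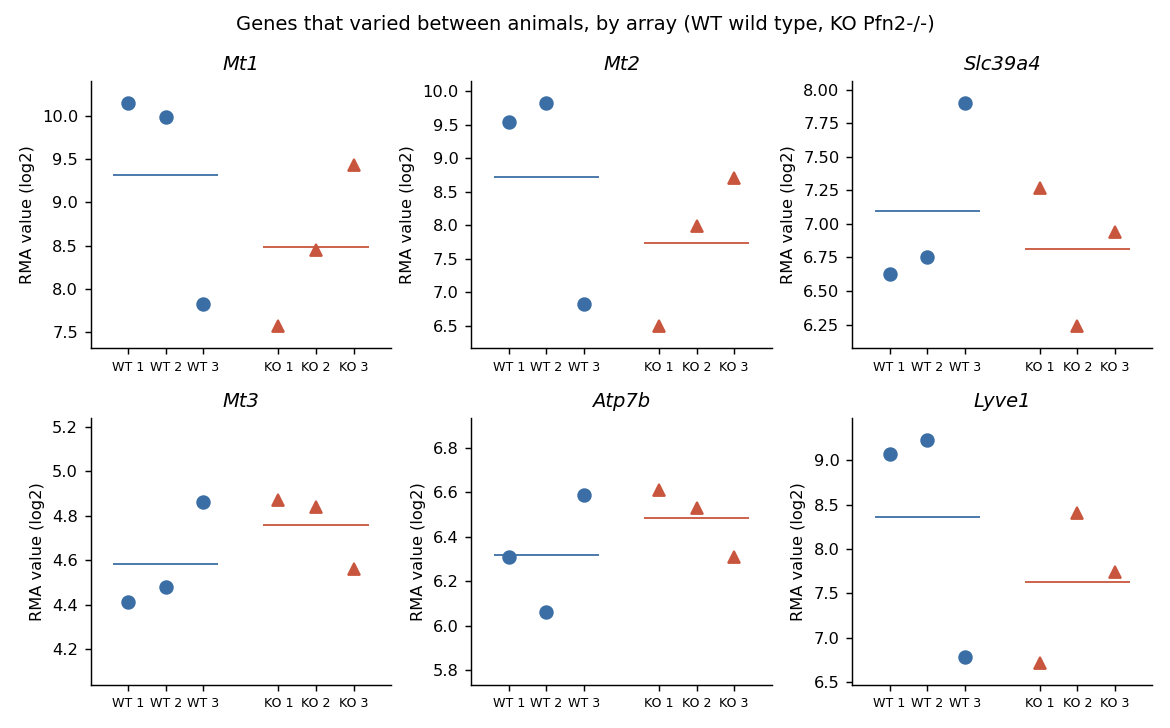
RMA values (log2, vertical axes, which differ between panels and do not start at 0) of 6 genes in each array, with circles for wild type (WT), triangles for Pfn2-/- (KO) and lines for group means. Mt1, Mt2 and Lyve1 are lowest in wild-type replicate 3 and Pfn2-/- replicate 1, where Slc39a4, Mt3 and Atp7b are highest. In this pair Mt3 read 4.86 and 4.87, against 4.84 in Pfn2-/- replicate 2. Atp7b read 6.59 and 6.61, against 6.53 in Pfn2-/- replicate 2. The panels were picked with the values known, and Clec4g, from the same marker list as Lyve1, was highest in this pair.

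Array means were 7.12 to 7.88 for 7 Kupffer cell markers, with wild-type replicate 2 highest and the other 5 arrays at 7.12 to 7.42, and 7.15 to 7.43 for 6 stellate cell markers. They were 4.81 to 5.09 for 4 cholangiocyte markers, 4.37 to 4.87 for 5 lymphocyte markers and 3.72 to 3.98 for 6 neutrophil markers. For markers that whole liver should lack or hold at a low level they were 3.93 to 4.17 (5 of pancreatic acinar cells), 4.79 to 5.20 (5 of enterocytes), 4.47 to 4.85 (5 of adipocytes) and 4.56 to 4.78 (5 of neurons and glia). Among the markers, Sox9 of cholangiocytes was higher in Pfn2-/- liver at an unadjusted p under 0.05, by 0.58 (SE 0.20), and its groups did not overlap. Over all genes these shares were 5.29% and 9.85%. Krt19, Krt7 and Epcam of the same list differed by 0.05 (SE 0.15), 0.02 (SE 0.18) and -0.10 (SE 0.17). Prss2 of acinar cells and Cidec of adipocytes also had an unadjusted p under 0.05, at 0.34 (SE 0.15) and 0.56 (SE 0.25). Prss2 lay at 2.87 to 3.57, below the olfactory receptor reference in every array. The sole measured erythroid marker, Slc4a1, lay at 4.52 to 5.28. Array medians over all rows were 4.36 to 4.41. The targeted gene Pfn2 read 4.02, 3.85 and 4.09 (wild type) against 3.88, 3.81 and 3.93 (Pfn2-/-), below the olfactory receptor reference in every array. Where its probes lie on the transcript is not known here, so this row cannot test the genotype labels.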

How the data were processed

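Total RNA came from frozen liver by Trizol, and biotin labelling used the GeneChip WT PLUS kit, per the labels' protocols. The authors deposited log2 expression values for 34390 rows, made with RMA per the submitters' processing notes, which also name limma. No version of either is given there. RMA quantile normalizes arrays and compresses differences of dim rows. Of the rows 23521 had 1 gene symbol in the platform annotation, and the row with the highest mean was kept per gene, leaving 22180 genes. The genotype contrast was fitted by limma 3.58.1 under R 4.3.3 (lmFit, eBayes, genotype alone, two-sided, Benjamini-Hochberg). The fit was tested on simulated data. No set test was made. The genes and lists were chosen with earlier results of these data known. Named genes are all 33 measured genes, Pfn2, marker genes, and per other list the 4 of smallest p and any under 0.05. Sod1 was named for its link to Ccs. The 10 pathway lists are those named in the text. The series design text calls the animals independent biological replicas, and p-values rest on the spread between these animals. The eBayes step of limma moves each gene's spread toward that of all genes. It makes the SE smaller than the gene's own arrays give for Mt1 and Mt2, and larger for Slc31a2. Their intervals and p-values shift accordingly. Alternatives covered scaling, dim filters, row choice, variance models, a replicate block and single arrays left out.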

Additional observations from a re-analysis of the deposited data

How the results depend on the processing

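None of the 33 genes passed the adjusted threshold in any of 18 alternatives (scaling, dim filters, row choice, variance models, replicate block, single arrays left out), the smallest adjusted p being 0.412. At an unadjusted p under 0.05 there were 4 members with array weights, Mt1 and Mt2 joining, and 1 to 5 without single arrays. Over all genes tested, such a p numbered 892 to 1560 without single arrays and up to 1601 in the other alternatives. Non-overlapping members numbered 4 with median centring and with repeated quantile normalization, and 3 to 9 without single arrays, where smaller groups overlap less easily. The share of all genes was not computed for these overlap counts, so they are not read as a result about the members. Over all genes 2 passed with array weights, 7 with the replicate block and 0 to 6 without single arrays, and 682 had an unadjusted p under 0.05 with the filter at the median, which tests fewer genes. Same-numbered arrays deviated from their group means with correlations of -0.0823, 0.155 and 0.0202, so the numbers were not taken as pairs. With the block, Mt1 and Mt2 differed by -0.83 and -0.99, and 2 members had an unadjusted p under 0.05. List medians moved to 0.049 (Commander subunits, array weights), -0.10 (copper enzymes, lower quartile filter), -0.034 (copper enzymes, array weights) and -0.0033 (zinc carriers, filter at the median). Without single arrays they ranged from -0.0067 to 0.072 for copper delivery, -0.053 to 0.045 for copper enzymes and -0.11 to 0.083 for NRF2 targets. Genes at an unadjusted p under 0.05 then numbered 0 to 2 for copper delivery, 0 to 1 for copper enzymes, for Commander subunits and for zinc carriers, and 1 to 3 for heat shock. Signs turned in 13 members. Slc30a6 was at 0.023 with quantile normalization and 0.015 with cyclic loess, Slc39a7 at 0.002222, 0.001877 and, with array weights, 0.0056, Slc39a2 at -0.0034 and Ccs at 0.019 with array weights. Without single arrays the ranges were -0.0017 to 0.20 for Mtf1, -0.043 to 0.042 for Slc30a6, -0.027 to 0.11 for Slc30a7, -0.018 to 0.13 for Slc30a8, -0.043 to 0.19 for Slc39a1, -0.032 to 0.15 for Slc39a2, -0.51 to 0.13 for Slc39a4, -0.11 to 0.055 for Slc39a7, -0.14 to 0.043 for Slc39a11, -0.15 to 0.16 for Slc39a12, -0.08 to 0.12 for Slc39a13, -0.17 to 0.088 for Ccs, -0.0083 to 0.072 for Cp, -0.37 to 1.20 for Hspa1b, -0.29 to 0.0083 for Hmox1, -0.0067 to 0.23 for Selenoh, -0.028 to 0.61 for Hsph1 and -0.19 to 0.82 for Hspa1a. The causes were not tested.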

Other observations

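Across the 6 arrays, Mt1 and Mt2 had a Pearson r of 0.986 and a Spearman rho of 0.943 (exact permutation p = 0.00417 and 0.0167, r = 0.981 without the 2 arrays farthest from the median). Against the mean of both, chosen after their values were seen, 31 relations were computed, one for each of the other members, with arrays of both genotypes pooled. None passed Benjamini-Hochberg adjustment over the 31, and 2 had an unadjusted exact permutation p under 0.05. The copper pump gene Atp7b ran opposite to the metallothioneins (r = -0.918, rho = -0.986, exact permutation p = 0.00833 and 0.00556, adjusted p = 0.237 and 0.172, r = -0.856 without the 2 farthest arrays). Mt3 also ran opposite (r = -0.954, rho = -0.943, exact permutation p = 0.0153 and 0.0167, adjusted p = 0.237 and 0.258, r = -0.963 without the 2 farthest arrays), over a range of 0.46 log2 units near the level of silent rows. For Spearman rho without ties, the smallest permutation p that the 720 orders of 6 arrays allow is 0.00278. At that p a single relation cannot pass the adjustment over 31, so the adjusted result for rho cannot tell whether a relation exists.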
